A study of Mus musculus with 2 samples.

Results

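The 10 genes described here encode chromatin repressors of the 2-cell-like state: Trim28, Setdb1, Ehmt1, Ehmt2, Kdm1a, Chaf1a, Chaf1b, Pcgf6, Max and Mga. They were chosen by name, as genes whose loss is known to raise 2-cell genes in mouse embryonic stem cells; the rule uses no measured value, but earlier results of these data were known when it was set. All 10 were found among the 22421 genes of the deposited tables, each represented by its transcript with the highest summed value. The study measured RNA by sequencing in CGR8 mouse embryonic stem cells, a line kept without feeder cells in serum with leukaemia inhibitory factor. One group was transfected with a negative siRNA and the other with an siRNA against Set1a, repeatedly within 72 hours, and each group was 1 library. SET1A, the product of the gene listed as Setd1a, places methyl groups on H3K4, and the comparison asked how lowering it affects expression across the genome.

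In the mouse embryo at the 2-cell stage a burst of genes, Zscan4 among them, is expressed together with endogenous retroviral repeats. In embryonic stem cell cultures nearly all cells keep this programme silent, and a small fraction enters it for a short time. Several layers of chromatin hold it down. TRIM28, brought to DNA by zinc finger proteins, recruits SETDB1, which trimethylates H3K9. G9a and GLP, encoded by Ehmt2 and Ehmt1, form a dimer that dimethylates H3K9. LSD1, encoded by Kdm1a, removes methyl groups from H3K4. CAF-1, with CHAF1A and CHAF1B as subunits, places new histones on replicating DNA. PCGF6 defines PRC1.6, a variant Polycomb complex that reaches its targets through MGA and MAX, which bind E-box sequences as a pair, and through E2F6.

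With 1 library a group there was no replicate check and no test, and each ratio below carries an exact Clopper-Pearson 95% interval that covers counting error only. The depths, inferred from the deposited values, were 6655821 reads (control siRNA) and 6421185 reads (Set1a siRNA). A multiple of these depths would also give whole reads, and the lowest that fitted was taken. All read numbers and intervals below rest on them. Values are RPKM, reads scaled by transcript length and library depth. A gene was counted as past the rule of size at 2-fold or more either way, with 1 RPKM added to each value, among the 11802 genes whose mean of both libraries was 1 RPKM or more. Setd1a itself was at 14.2 RPKM with the control siRNA and 11.97 RPKM with the Set1a siRNA, a ratio of 0.846 (0.746 to 0.959). The targeted transcript was therefore 15.4% lower. Of the 11802 genes, 15.1% had a lower fold than Setd1a, so a difference of this size was not particular to the target. The SET1A protein was not measured. Markers of embryonic stem cells were high in both libraries, with 745 and 740 RPKM for Pou5f1, 347 and 351 for Zfp42, 283 and 248 for Sox2, and 272 and 281 for Nanog. Of 8 fibroblast genes, 1 (Thy1) reached a mean of 1 RPKM. Col1a2, Dcn and Postn were listed at 0 in both libraries, and the 8 genes summed to 2.65 and 4.56 RPKM.

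All 10 repressor genes were expressed in both libraries, and 0 of them passed 2-fold, against 1.18% of all genes by the same rule, 0.771% higher and 0.407% lower. At 1.5-fold the count was also 0 of 10, against 4.52% of all genes. Both shares of all genes take in genes with fewer reads than any member. Trim28, Chaf1a and Ehmt1 were higher with the Set1a siRNA than with the control siRNA, and Pcgf6 and Mga were lower, each by more than counting error. Setdb1, Ehmt2, Kdm1a, Chaf1b and Max had intervals that included 1. Counting intervals left out 1 for 5 of the 10 genes, against 22.9% of the 11670 such genes of known length, where 11.9% lay above 1 and 11% below. Among the 4121 genes with at least as many reads as Pcgf6, the member with the fewest, the share was 34.3%. By direction, 3 members had an interval above 1, against 16.2% of those well-read genes, and 2 had one below 1, against 18.2%. The median log2 fold of the 10 genes was -0.0046, beside 0.0063 over all genes. In bulk RNA, fewer cells with a transcript and less of it per cell cannot be told apart.

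**Figure D1:**
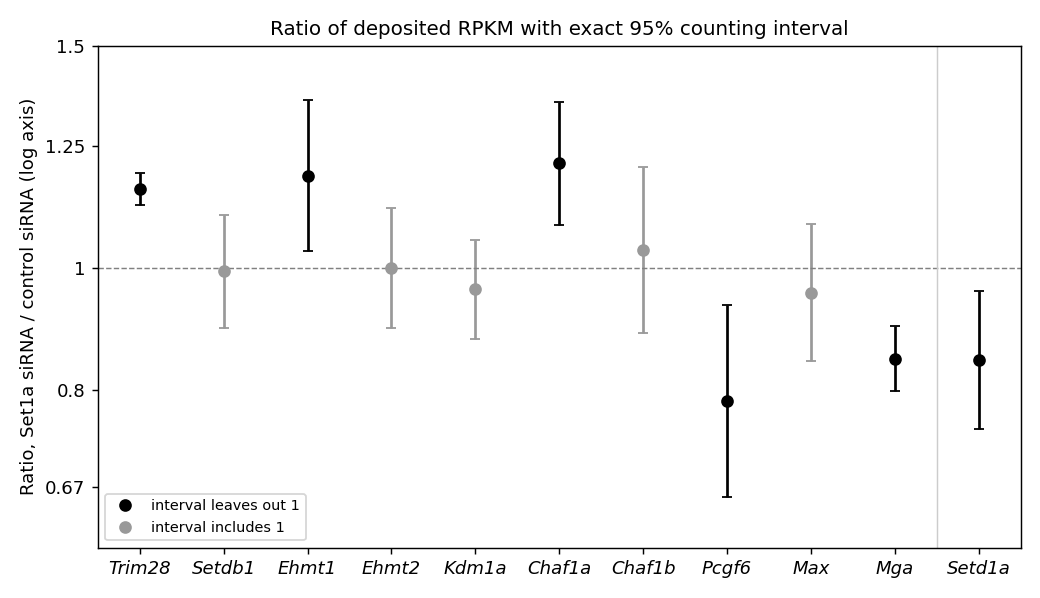
Ratio of the deposited RPKM, Set1a siRNA over control siRNA, on a log axis, for the 10 repressor genes and, at the right, the targeted gene Setd1a. Points are the ratio of 1 library to 1 library and bars the exact 95% counting interval. Black points, whose interval leaves out 1, lie above the line for Trim28, Ehmt1 and Chaf1a and below it for Pcgf6, Mga and Setd1a.

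CpG, the dinucleotide that the CXXC1 subunit of SET1 complexes is known to bind, was counted in the promoters of the members. The RefSeq promoters of 4 members are shown, Trim28 and Chaf1a from the higher ones and Pcgf6 and Mga from the lower ones, each running from 250 bases before the start of the gene to 50 after it, with every CpG in capitals.
Trim28 promoter: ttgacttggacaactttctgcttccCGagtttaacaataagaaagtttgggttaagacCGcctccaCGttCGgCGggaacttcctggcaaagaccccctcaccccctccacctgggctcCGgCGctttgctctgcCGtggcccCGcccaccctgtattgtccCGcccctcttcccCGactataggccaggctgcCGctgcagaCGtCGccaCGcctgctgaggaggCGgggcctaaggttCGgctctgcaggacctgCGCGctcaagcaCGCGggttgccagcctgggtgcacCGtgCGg
Chaf1a promoter: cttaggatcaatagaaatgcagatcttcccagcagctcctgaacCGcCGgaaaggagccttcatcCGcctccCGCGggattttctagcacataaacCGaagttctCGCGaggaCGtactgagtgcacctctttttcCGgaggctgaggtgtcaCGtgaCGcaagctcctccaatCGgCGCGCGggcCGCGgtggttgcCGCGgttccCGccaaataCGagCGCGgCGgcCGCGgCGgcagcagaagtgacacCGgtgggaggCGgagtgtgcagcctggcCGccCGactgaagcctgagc
Pcgf6 promoter: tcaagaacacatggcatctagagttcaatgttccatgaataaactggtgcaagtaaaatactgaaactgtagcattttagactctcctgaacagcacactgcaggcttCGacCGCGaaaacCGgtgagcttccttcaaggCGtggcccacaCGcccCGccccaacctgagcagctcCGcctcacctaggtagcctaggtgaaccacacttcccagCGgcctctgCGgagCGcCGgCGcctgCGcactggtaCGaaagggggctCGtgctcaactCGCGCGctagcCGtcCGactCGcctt
Mga promoter: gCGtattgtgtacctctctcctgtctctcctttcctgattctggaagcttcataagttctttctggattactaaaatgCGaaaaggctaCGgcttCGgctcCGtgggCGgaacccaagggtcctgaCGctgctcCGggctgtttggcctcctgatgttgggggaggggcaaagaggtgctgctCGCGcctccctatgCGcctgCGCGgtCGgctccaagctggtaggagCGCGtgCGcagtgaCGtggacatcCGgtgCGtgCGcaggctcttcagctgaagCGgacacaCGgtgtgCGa
They lie, in GRCm38.p6 and not in the build of the deposited files, at chr7:13023902-13024201 (plus strand) for Trim28, chr17:56040166-56040465 (plus strand) for Chaf1a, chr19:47050857-47051156 (minus strand) for Pcgf6 and chr2:119896978-119897277 (plus strand) for Mga. The counts of CpG were 23 in Trim28 and 32 in Chaf1a, against 22 in Pcgf6 and 24 in Mga. All 10 members matched the promoter table, Ehmt2 with 2 promoters, and these 11 windows held 15 (Setdb1) to 40 (the second Ehmt2 window) CpG. The median over 11835 promoters of expressed genes was 20, with quartiles of 12 and 29. Of the 4 shown, Trim28, Pcgf6 and Mga lay between those quartiles and Chaf1a above them. The windows of Ehmt1, Chaf1b and Max and the second Ehmt2 window also lay above the upper quartile. Only the Setdb1 window lay below the median. The higher members, at 23 for Trim28, 32 for Chaf1a and 34 for Ehmt1, and the lower ones, at 22 and 24, overlapped in this number.

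Those windows were also searched on both strands for the E-box CACGTG, the element of MAX pairs, and for GCGGGAA, a core of E2F sites. These motifs share no letters in any member window. Distances are from the RefSeq start; for Chaf1a and Max the bases just after it were not found in a GENCODE M21 transcript of the gene, so for these the position of the start is less certain. The E-box was present in Chaf1a, where it began 99 bases before the start, in Max and in both windows of Ehmt2, and in 10.3% of promoters of expressed genes. The E2F core was present in Trim28, 178 bases before the start, in Chaf1a, 47 bases before it, and in Chaf1b, and in 8.54% of promoters of expressed genes. Neither letter string occurred in the windows of Ehmt1, a higher member, of Pcgf6 and Mga, the lower ones, or of Setdb1 and Kdm1a. A match is a description of the sequence and does not show that a factor binds there.

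Trim28 was by far the most abundant of the 10, at 386 RPKM with the control siRNA and 446 RPKM with the Set1a siRNA. The higher value was that of the Set1a siRNA library, from 9293 reads against 8339. The ratio was 1.16 (1.12 to 1.19), the narrowest interval of the 10, and the log2 fold was 0.21. Among the well-read genes, 10.1% had a higher fold. With a trend in GC content and transcript length removed, the log2 fold was 0.098, and the interval still left out 1. Setdb1, the methyltransferase that TRIM28 recruits, was at 24.7 and 24.5 RPKM, with a ratio of 0.994 (0.897 to 1.10). The upper end of its interval lay below the ratio of Trim28 without the trend removed. With the trend removed, the log2 folds lay closer together, at 0.098 for Trim28 and -0.0125 for Setdb1. Whether the 2 genes differ from each other was not tested. Per length, Trim28 was 15.7 times as abundant as Setdb1 with the control siRNA and 18.2 times with the Set1a siRNA.

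The genes that work with TRIM28 and SETDB1 differed little. Of 16 measured partners, 5 were higher and 11 lower, 0 passed 2-fold, and the median log2 fold was -0.07. Cbx5, which encodes the heterochromatin protein HP1 alpha, was at 46.5 and 40.8 RPKM, with a ratio of 0.878 (0.830 to 0.928), the only interval of the 16 below 1. Zfp57, a zinc finger protein that brings TRIM28 to imprinted regions, was at 111 and 124 RPKM, with a ratio of 1.12 (1.04 to 1.21), the only interval above 1; it was picked out with its values known. Atf7ip2, a relative of the SETDB1 cofactor gene Atf7ip, had the fold farthest from 0, at 8.61 and 6.84 RPKM, but from 60 and 46 reads, and its interval of 0.529 to 1.19 included 1.

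Of the genes for the dimer partners G9a and GLP, Ehmt1 had a 95% interval that left out 1 and Ehmt2 had one that included it. Ehmt1, for GLP, was at 12.1 RPKM with the control siRNA and 14.3 RPKM with the Set1a siRNA, the lowest level of the 10 members. The value with the Set1a siRNA was the higher one, with 451 reads against 395, a ratio of 1.18 (1.03 to 1.36) and a log2 fold of 0.23. With a 99% interval Ehmt1 no longer left out 1, and it was the single member of the 5 for which this was so. Ehmt2, for G9a, was at 26.8 RPKM in both libraries, a ratio of 0.999 (0.895 to 1.12). With the GC and length trend removed its log2 fold was -0.12, the widest shift of the 10 members, and the interval still included 1. The ratio of the Ehmt1 to the Ehmt2 level, per length, was 0.450 with the control siRNA and 0.533 with the Set1a siRNA. Whether the 2 ratios to control differ from each other was not tested, and their intervals overlap. Of 4 measured partners of the dimer, 1 was higher and 3 lower, with a median of -0.07, and all 4 intervals included 1. Among them Zfp644, a zinc finger partner of the dimer, was at 7.66 and 7.09 RPKM and Cdyl2, a chromodomain protein gene, at 12.7 and 13.6 RPKM.

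**Figure D2:**
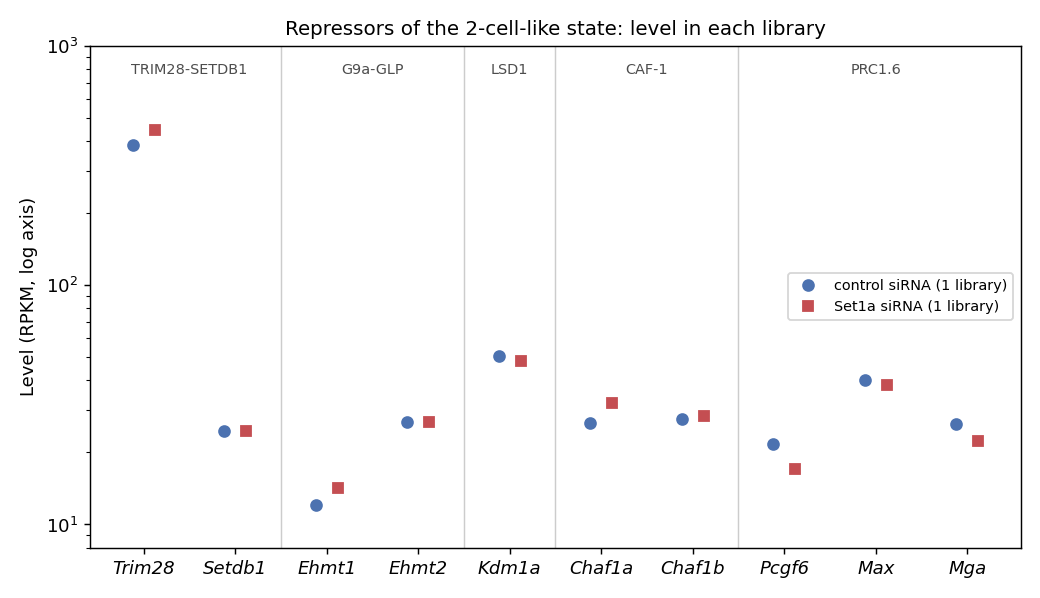
Level of each of the 10 repressor genes in RPKM on a log axis, with the control siRNA library as circles and the Set1a siRNA library as squares, grouped by complex. Trim28 stands at 386 and 446 RPKM, and the 9 others between 12.1 and 50.4 RPKM.

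Kdm1a, for LSD1, was at 50.4 RPKM with the control siRNA and 48.5 RPKM with the Set1a siRNA. The values were close, from 1011 and 938 reads, with a ratio of 0.962 (0.879 to 1.05). Of 12 partners and relatives of LSD1, 6 were higher and 6 lower, 0 passed 2-fold, and the median log2 fold was 0.0005. Kdm1b, the related demethylase LSD2, was low, at 3.02 and 4.07 RPKM, with a ratio of 1.35 (1.01 to 1.81). Rcor3, a CoREST scaffold gene, was at 0.848 and 1.27 RPKM, from 18 and 26 reads, and its interval included 1. Zmym2, a zinc finger partner of LSD1 that also counts among the known repressors of the 2-cell-like state, was at 14.7 and 12.3 RPKM, with a ratio of 0.842 (0.751 to 0.944). Counting intervals lay above 1 for 2 of the 12, Kdm1b and Gse1, and below 1 for 3, Zmym2, Phf21a and Hdac2. The shares over all genes were 11.9% and 11%, and 16.2% and 18.2% over the well-read genes. The ratio was 1.18 (1.02 to 1.37) for Gse1 and 0.801 (0.688 to 0.932) for Phf21a, both picked out with their values known.

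The 2 CAF-1 members were at like levels with the control siRNA, and only Chaf1a differed from it by more than counting error with the Set1a siRNA. Chaf1a, for the large subunit, was at 26.6 RPKM with the control siRNA and 32.2 RPKM with the Set1a siRNA, the highest fold of the 10 members. The ratio was 1.21 (1.08 to 1.35) from 585 and 683 reads, and the log2 fold was 0.27. Among the well-read genes, 6.02% had a higher fold. Chaf1b, for the middle subunit, was at 27.6 and 28.5 RPKM, with a ratio of 1.03 (0.889 to 1.20), and its interval overlapped that of Chaf1a. The Chaf1a to Chaf1b level ratio, per length, was 0.964 with the control siRNA and 1.13 with the Set1a siRNA. Rbbp4, the small subunit, was at 52.9 and 57.6 RPKM, with a ratio of 1.09 (1.01 to 1.17), and Pcna, the replication clamp that binds CAF-1, at 207 and 223 RPKM, with a ratio of 1.08 (1.01 to 1.15); both were picked out with their values known. Of 13 CAF-1 and other histone chaperone genes that are not members, 8 were higher and 5 lower, with a median of 0.04. Asf1a, which hands histones to CAF-1, was at 12.7 and 14.3 RPKM with an interval that included 1. Ubn2, of the HIRA complex, was at 3.06 and 2.43 RPKM, with a ratio of 0.794 (0.665 to 0.946).

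The 3 PRC1.6 members were all at lower values with the Set1a siRNA, Pcgf6 and Mga beyond counting error and Max within it. Pcgf6 had the lowest fold of the 10 members. It was at 21.8 RPKM with the control siRNA and 17.1 RPKM with the Set1a siRNA, from 304 and 230 reads, a ratio of 0.784 (0.658 to 0.934) and a log2 fold of -0.33. Among the well-read genes, 2.77% had a lower fold. Mga, a very large protein with a T-box and a second DNA-binding domain that pairs with MAX, was at 26.3 and 22.3 RPKM. Its long transcript drew 2439 and 1994 reads, so counting error around the ratio of 0.847 (0.798 to 0.899) was small. Of the well-read genes, 8.78% had a lower fold than Mga. Subtracting the trend in GC content and transcript length moved the log2 fold of Mga from -0.23 to -0.15. Its interval still left out 1. Max was at 40.03 and 38.3 RPKM, with a ratio of 0.956 (0.843 to 1.08), and its interval included both 1 and the ratio of Mga. Per length, the level of Pcgf6 over that of Max was 0.544 with the control siRNA and 0.446 with the Set1a siRNA, and the level of Mga over that of Max was 0.657 and 0.583.

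Of 12 measured PRC1.6 subunits beside the members, 7 had lower values with the Set1a siRNA, 5 had higher ones and 0 passed 2-fold, and the median log2 fold was -0.11. Over all genes, 5759 of 11802 had lower values. Counting intervals lay below 1 for 3 of the 12 and above 1 for 0, against 11% and 11.9% of all genes and 18.2% and 16.2% of the well-read genes. Rnf2, a ubiquitin ligase of PRC1 complexes, was at 38.6 and 33.4 RPKM, with a ratio of 0.867 (0.780 to 0.964). Wdr5, shared with the SET1 complex itself, was at 83.0 and 72.6 RPKM, with a ratio of 0.874 (0.812 to 0.9404). Hdac2, a deacetylase also found with LSD1 and picked out with its values known, was at 89.8 and 82.5 RPKM, with a ratio of 0.918 (0.844 to 0.998). E2f6 and L3mbtl2, which with MGA give the complex its targets, were picked out with their values known: E2f6 was at 11.3 and 10.4 RPKM and L3mbtl2 at 42.8 and 39.1 RPKM, with intervals that included 1. The 5 subunits with higher values all had intervals that included 1. Cbx3, for a heterochromatin protein, was highest in fold, at 34.2 and 38.6 RPKM, and Tfdp1, for a dimer partner of E2F proteins, was at 38.6 and 41.1 RPKM. Rybp was at 74.95 and 77.7 RPKM, its relative Yaf2 at 1.34 and 1.45 RPKM, and the deacetylase gene Hdac1 at 120.4 and 120.7 RPKM. The PCGF genes of the other PRC1 complexes, which take the place of PCGF6 there, had a median of 0.23, with 4 of 5 higher. The median was 0.026 over Pcgf2 and Pcgf3, the only ones with a mean of 5 RPKM or more. All 5 of their intervals included 1, and Pcgf5, at 3.68 and 4.75 RPKM, and Pcgf1, at 2.58 and 3.21 RPKM, rested on at most 46 reads a library.

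MAX also pairs with MYC, MXD and MNT proteins, and MLX is a MAX-like protein of the same network. Of 8 genes of this network measured, Mlx included, 6 were higher and 2 lower, with a median log2 fold of 0.14. Myc was at 8.09 RPKM with the control siRNA and 11.8 RPKM with the Set1a siRNA, a ratio of 1.46 (1.16 to 1.85). Mxd4, for a MAX partner that opposes MYC, was at 3.82 and 5.55 RPKM, with a ratio of 1.45 (1.11 to 1.89). Mycn, the most abundant of these genes and picked out with its values known, was lower, at 51.9 and 44.6 RPKM, with a ratio of 0.860 (0.779 to 0.949). The network's ratios thus lay on both sides of 1.

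**Figure D3:**
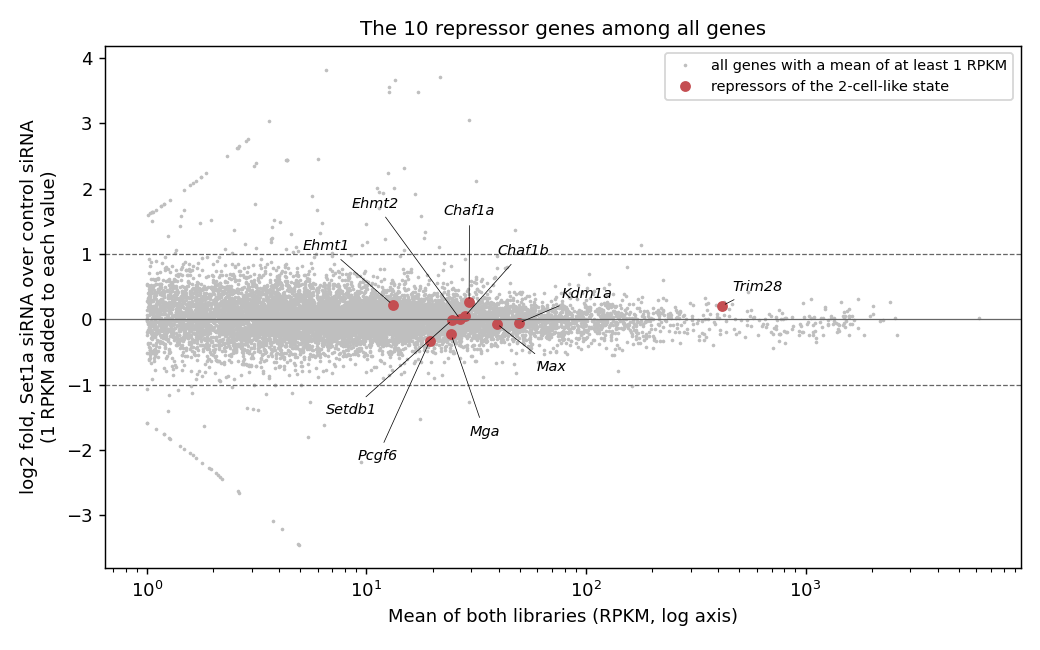
The log2 fold of every gene whose mean reached 1 RPKM, Set1a siRNA over control siRNA with 1 RPKM added to each value, against the mean of both libraries on a log axis. Dashed lines mark 2-fold. The 10 repressor genes, as large points, lie between -0.33 for Pcgf6 and 0.27 for Chaf1a, inside the band of genes of their level.

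Several members were listed as more than 1 transcript, and the transcripts of a gene shared most of their reads. The 10 genes had 18 listed transcripts, and 5 genes had a single one. For Setdb1 the 3 listed transcripts, 4619, 4622 and 4660 nucleotides long, each held 758 control and 727 Set1a siRNA reads, so that their RPKM differed through length alone. The 4 Ehmt1 transcripts held 392 to 404 control reads and 449 to 461 Set1a siRNA reads, with ratios from 1.18 to 1.19. The 2 transcripts of Mga, 13304 and 13931 nucleotides long, had ratios of 0.844 and 0.847, those of Max 0.956 and 0.960, and those of Ehmt2 0.994 and 0.999. As a read in a shared exon was counted at each transcript, these values are not separate measurements, and no preference for 1 isoform can be read from them. The Chaf1a reads rest on a length of 3308 nucleotides, well short of the 5535 in GENCODE M21; a longer transcript with more reads would give the same RPKM and a narrower interval.

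Other genes known to hold down the 2-cell-like state, among them DNA methylation, SUMO and microRNA processing genes, had a median log2 fold of -0.01. Of 16 measured, 6 were higher and 10 lower, and 0 passed 2-fold. Zmym2, given above, and Pias4, a SUMO ligase at 18.5 and 21.5 RPKM with an interval that included 1, lay farthest out. Counting intervals lay below 1 for 3 of the 16, Zmym2, Rnf2 and Dnmt1, and above 1 for 1, Lin28a. The shares were 11% and 11.9% of all genes, and 18.2% and 16.2% of the well-read genes. Dnmt1, the maintenance DNA methyltransferase, was at 61.5 and 55.6 RPKM, with a ratio of 0.904 (0.849 to 0.962). Lin28a was at 78.0 and 85.5 RPKM, with a ratio of 1.10 (1.03 to 1.17). Both were picked out with their values known. Rif1, Rnf2, Rybp and Zmym2 stand on this list and on a partner list above.

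Genes known to act in the opposite direction had a median of 0.08, with 5 of 7 higher and 0 past 2-fold. Smad7 was at 20.5 and 25.9 RPKM, with a ratio of 1.27 (1.14 to 1.41). Nelfa, a subunit of the negative elongation factor that is present in the 2-cell embryo, was at 17.0 and 21.5 RPKM, with a ratio of 1.26 (1.06 to 1.499). Dppa2 and Dppa4, which act together upstream of Zscan4 and were picked out with their values known, were at 54.3 and 55.7 RPKM and at 55.1 and 51.7 RPKM, with intervals that included 1. The gene Dux was not analysed here.

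**Figure D4:**
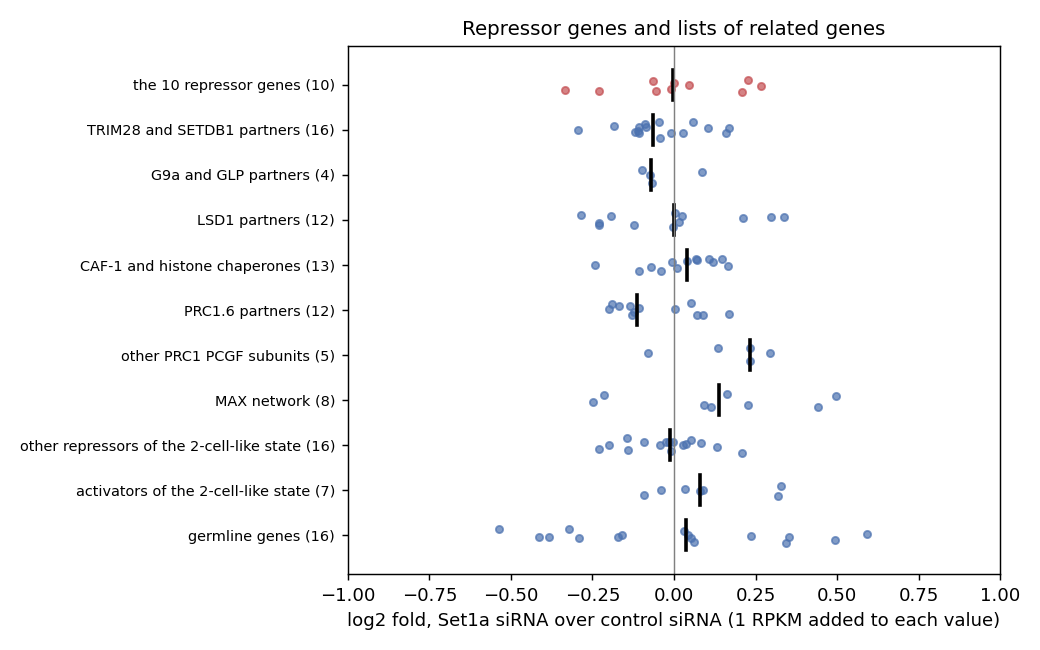
The log2 fold of each gene whose mean reached 1 RPKM, Set1a siRNA over control siRNA with 1 RPKM added, as 1 point, for the 10 repressor genes (top) and the lists of related genes, with the number of genes in brackets and a black bar at the median. Each point is the difference of 1 library from 1 library. The 10 repressor genes have a median of -0.0046, and those of PRC1.6 partners and the MAX network are -0.11 and 0.14.

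Most measured genes of a 2-cell list had a higher fold than any of the 10 repressor genes. Zscan4f was at 2.22 RPKM with the control siRNA and 41.2 RPKM with the Set1a siRNA, a ratio of 18.6 (12.6 to 28.5), and Gm4340 at 5.52 and 53.0 RPKM, with a ratio of 9.60 (7.07 to 13.3). Both have near-identical copies, so their single values are uncertain. Of 22 genes of a 2-cell list found in the tables, 14 reached a mean of 1 RPKM, and 11 of these passed 2-fold upwards, against 0.771% of all genes. Sp110, at 3.56 and 3.77 RPKM, and Zfp420, at 1.44 and 1.31 RPKM, had intervals that included 1 and were picked out with their values known. Among the 11, Zscan4a, Zscan4b, Zscan4c, Zscan4d and Zscan4f are of 1 family and Usp17lb and Usp17lc of another, so the genes counted are not independent. The list was also chosen with earlier results of these data known. Usp17lb, Usp17lc and Pramel16 had that mean only through their Set1a siRNA value. For these reasons the count supports nothing by itself. The lowest and highest ratios among the 10 repressor genes, 0.784 and 1.21, stood beside these values in the same 2 libraries, and no relation between them was tested.

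Germline genes, which PRC1.6 and the H3K9 methyltransferases are known to silence in embryonic stem cells, did not share a direction. Of 23 found, 16 reached a mean of 1 RPKM, of which 9 were higher and 7 lower, and 0 passed 2-fold. Below that mean, Tdrkh, Tex11, Slc25a31, Tdrd1, Taf7l and Tex101 had higher values and Sycp2 a lower one, all from few reads. Tdrkh had 7 control and 26 Set1a siRNA reads, a ratio of 3.85 (1.63 to 10.5). Tex11 had 7 and 21 reads, a ratio of 3.11 (1.27 to 8.66). The intervals of the others below that mean included 1. The median log2 fold of the 16 genes was 0.04, and 0.06 without a floor. Over Sycp3, Stag3, Zcwpw1 and Sohlh2, the only ones with a mean of 5 RPKM or more, it was -0.28, with Sohlh2 higher. The cohesin gene Smc1b was at 5.09 and 3.20 RPKM, with a ratio of 0.628 (0.472 to 0.831). The meiotic cohesin gene Rec8 was at 1.02 and 2.05 RPKM, from 14 and 27 reads, a ratio of 2.00 (1.01 to 4.12). Stag3, a cohesin gene picked out with its values known, was at 15.6 and 11.8 RPKM, with a ratio of 0.751 (0.649 to 0.870), while Stk31, a testis kinase gene named likewise, was at 2.13 and 3.41 RPKM, with a ratio of 1.5999 (1.09 to 2.37). The Magea genes, which G9a is known to keep silent, stayed near 0: 7 of 8 were listed at 0 in both libraries, and Magea4 had 3 control and 8 Set1a siRNA reads. A count of 0 allows an expected number of up to 3 reads in a library.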

How the data were processed

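RNA of CGR8 cells was sequenced in 2 libraries, 1 per group, grouped by the transfection label. The deposited tables give the authors' RPKM for 28430 RefSeq transcripts, with no header. The submitters' processing notes name build mm9 and, without roles, SAMtools 0.1.16, TopHat, TopHat2 2.0.12 and CASAVA. The counting program is not given in the sources used here. Symbols came from a GRCm38.p6 RefSeq table and GENCODE M21 (98.3% of transcripts).

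Whole reads were recovered from the deposited RPKM: at the depths found, a whole length and 2 whole read numbers gave both values to 6 digits for 96.9% of transcripts with up to 1000 reads, and for 80.1% with a length within 10% of GENCODE. At depths moved by 1%, the latter share was 1.32%. Ratios carry exact Clopper-Pearson 95% intervals from these reads. With 1 library per group no test between groups was possible. The functions were tested on simulated data. Python 3.11.15, numpy 2.4.6 and scipy 1.17.1 were used.

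The members and lists were chosen with earlier results of these data known. Besides the 10 members, genes were named by rule: Setd1a, 4 markers, and in each list those past 2-fold and the 2 farthest from 0 with at least 30 reads over both libraries. Not every gene so named is printed. The list of reference genes is not reported here. Alternatives were pseudocounts of 0.1 and 5 RPKM, other scalings, transcript choices, floors, fold rules and a 99% interval, and subtraction of a trend, cubic in GC percent and in the logarithm of length, taken from genes with 5 RPKM or more and 200 nucleotides or more.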

Additional observations from a re-analysis of the deposited data

How the results depend on the processing

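The 10 member folds were recomputed under 7 other settings, and 68 of 70 values kept their sign. The exceptions were Setdb1, at 0.0090, and Ehmt2, at 0.016, with scaling without the 50 most abundant genes. Removing the GC and length trend brought Trim28 to 0.098, Ehmt2 to -0.12 and Mga to -0.15. The interval left out 1 for the same 5 members in each scaling and with the trend removed, and for 4 at 99%. No member passed the 1.5-fold rule, and 1, Pcgf6, passed the lowest fold rule run. By that lowest rule 1223 of all genes were higher and 961 lower, 18.5% of all. Of the well-read genes, whose depth is nearer that of the members, 92.9% lay within it. Over all genes, 91 were past 2-fold upwards and 48 downwards, and these numbers became 177 and 95 with a pseudocount of 0.1 RPKM, 37 and 10 with a pseudocount of 5 RPKM, 34 and 8 with a floor of 5 RPKM, and 327 and 206 with the 1.5-fold rule; without a floor 77 were lower. The median of the 2-cell list, 2.41, was 3.30 and 1.56 with pseudocounts of 0.1 and 5 RPKM, 1.38 without a floor and 3.48 with a floor of 5 RPKM. With that floor the median of the other PCGF subunits was 0.026 and that of germline genes -0.28, over fewer genes. For the others no cause was tested here. No paired analysis was possible because there was a single library for each siRNA. Depth limits low genes most.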
